A study of Mus musculus with 12 samples.

Results

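Pan-neuronal differentiation genes are the genes that most kinds of postmitotic neuron switch on whatever their subtype. A list of 34 of them was followed here by gene symbol: cytoskeletal, RNA-binding, transcription factor, synaptic and adhesion genes, with the factors of single neuron subtypes left out. All 34 were among the 53342 genes of the quantified table, and 33 were among the 17848 genes with enough signal to test (at least 1 TPM, a read level scaled to transcript length and library total, in at least 3 libraries). The exception was Myt1l. This list and the other gene lists below were chosen with earlier results of these data known, so their counts are not an independent check. RNA came from the caudal part of E10.5 mouse embryos, in 12 libraries of 4 genotypes with 3 libraries each.

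The genotypes were wild type, beta-catenin cKO (conditional knockout), Emg1 cKO and Vangl2 Lp/Lp, homozygous for loop-tail, a missense allele of Vangl2. The study set out to characterise, at the level of transcripts, the failure of neural tube closure in the 3 mutants. Each library was a pool of 4 to 7 embryos, so the tests measure spread between pools and not between embryos. The sources used here do not name the recombinase of the 2 conditional lines, the cells in which it acts, the deleted exons or the strains. Beta-catenin (gene Ctnnb1) is the transcriptional arm of canonical WNT signalling and links cadherins to actin. Emg1 is a methyltransferase used in making the small ribosomal subunit, and Vangl2 is a membrane protein that sets planar cell polarity.

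A neuron is born when a progenitor of the neural tube leaves the cell cycle under proneural basic helix-loop-helix factors. It then assembles neuron-specific tubulin, microtubule-associated proteins and neurofilaments, extends an axon and builds the machinery of regulated secretion. In non-neuronal cells many of these genes are held off by the repressor REST, which binds a long DNA element called RE1. At this stage the caudal region holds the youngest part of the spinal cord beside somites, tail bud, surface ectoderm and blood.

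Libraries held 32863469 to 46464523 reads. Emg1 mRNA was at 70.3, 70.9 and 80.5 TPM in wild type and fell to 48.0, 46.5 and 43.4 TPM in Emg1 cKO. Ctnnb1 mRNA was not called in beta-catenin cKO (748 to 849 TPM in wild type, 814 to 839 in the mutant), nor was Vangl2 mRNA in Vangl2 Lp/Lp (59.0 to 68.2 and 76.0 to 79.6 TPM). A whole-gene count need not move with a deletion of some exons or with a missense allele, so those values do not check the labels.

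One library stood apart in the genes described here. Vangl2 Lp/Lp replicate 1 lay above replicates 2 and 3 of its group in 33 of 33 members, against 34.8% of all genes tested. The ratio to the mean of the other two had a median of 1.70 over the members, from 1.15 to 2.76, and of 0.994 over all genes tested. In the same library all 12 genes of a list of Hox10 to Hox13 genes, which mark lumbosacral and tail levels, lay below both others, against 37.6% of all genes. Their median ratio was 0.584, and Hoxc10 was at 116 TPM there against 216 and 226 TPM. Summed TPM of a tail bud list (T, Cdx2, Fgf8 and others) was 135 against 212 and 221. The part of these differences in the neuronal values was not tested. Calls in Vangl2 Lp/Lp against wild type are counted with and without this library for all members together, and for other lists where the count changed. Comparisons of members between mutants are also given both ways. Medians by role and of the other lists are given only with this library.

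Some of the DNA in front of these genes can be shown. RefSeq promoter windows on GRCm38.p6, from 250 bases before to 50 bases after the annotated start, were found for 23 of the 34 genes. Those of Celf3, L1cam, Rbfox3 and Rtn1 lay at a start well inside the gene span and not in front of it. The counts that follow include them, with the CAGCTG of Celf3 and the CAGATG of L1cam. On both strands 4 strings were searched: CAGATG and CAGCTG, E-box forms that proneural factors and their partners can bind, and TCAGCACC and GGACAGC, pieces of the RE1 element. CAGATG stood in 6 of 23 windows (26.1%, against 17.2% of all 27025 windows) and CAGCTG in 5 (21.7%, against 16.1%). TCAGCACC stood in 2 (8.70%, against 1.59%), those of Kif5c and Tubb3, and GGACAGC in 4 (17.4%, against 6.59%), those of Apc2, Crmp1, Map2 and Tubb3. A match is a run of letters and not a measured binding site. In the Tubb3 window the 2 RE1 pieces stand far apart and are not joined, so that window does not show a whole RE1 element. The 4 windows below are shown because Stmn3 had the highest fold of all members, Nhlh2 carries both E-box forms, Elavl3 is an RNA-binding member described below and Tubb3, the most abundant member, carries both RE1 pieces. Each is written 5′ to 3′ on the gene's own strand, and capitals mark the searched strings on either strand. Stmn3 lies at chr2:181314451-181314750 on the minus strand, Nhlh2 at chr3:102009895-102010194 on the plus strand, Elavl3 at chr9:22051974-22052273 on the minus strand and Tubb3 at chr8:123411303-123411602 on the plus strand.
Stmn3: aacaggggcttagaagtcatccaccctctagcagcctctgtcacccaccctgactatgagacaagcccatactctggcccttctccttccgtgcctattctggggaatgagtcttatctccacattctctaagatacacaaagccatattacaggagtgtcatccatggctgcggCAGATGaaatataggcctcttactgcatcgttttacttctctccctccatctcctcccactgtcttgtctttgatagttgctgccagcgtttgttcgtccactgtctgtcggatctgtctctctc
Nhlh2: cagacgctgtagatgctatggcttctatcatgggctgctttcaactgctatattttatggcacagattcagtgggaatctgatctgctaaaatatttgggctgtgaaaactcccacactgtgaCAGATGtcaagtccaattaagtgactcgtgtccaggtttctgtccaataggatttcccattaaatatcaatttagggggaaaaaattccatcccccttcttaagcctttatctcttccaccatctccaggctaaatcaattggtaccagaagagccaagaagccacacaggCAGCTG
Elavl3: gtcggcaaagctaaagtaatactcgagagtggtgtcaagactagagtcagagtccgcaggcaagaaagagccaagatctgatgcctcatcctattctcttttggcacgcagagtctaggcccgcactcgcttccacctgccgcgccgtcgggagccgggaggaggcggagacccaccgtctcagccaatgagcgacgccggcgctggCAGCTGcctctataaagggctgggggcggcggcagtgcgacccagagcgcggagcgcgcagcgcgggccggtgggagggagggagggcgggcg
Tubb3: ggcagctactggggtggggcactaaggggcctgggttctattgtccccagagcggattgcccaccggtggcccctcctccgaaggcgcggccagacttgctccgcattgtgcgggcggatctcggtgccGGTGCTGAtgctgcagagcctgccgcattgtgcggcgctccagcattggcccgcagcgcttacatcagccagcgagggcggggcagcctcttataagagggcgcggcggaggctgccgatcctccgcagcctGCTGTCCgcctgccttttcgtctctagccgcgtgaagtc

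Pan-neuronal RNA was higher in all 3 mutants than in wild type. Calls are those of edgeR's quasi-likelihood test at an adjusted p (Benjamini-Hochberg, over all genes tested) under 0.05. In Emg1 cKO 33 of 33 tested members rose, where 11.3% of all genes tested were called higher. In Vangl2 Lp/Lp 26 of 33 rose, against 5.45% of all genes, and in beta-catenin cKO 22 of 33, against 7.48%. No member was called lower in any of these comparisons, where 10.4%, 3.34% and 6.99% of all genes were, and none was lower at an unadjusted p under 0.05 or in DESeq2 or limma. The median log2 fold change of the members was 1.21 in Emg1 cKO, 0.86 in Vangl2 Lp/Lp and 0.80 in beta-catenin cKO, while that of all genes tested was 0.00 in each. The order of the last 2 mutants rested on Vangl2 Lp/Lp replicate 1. Without it 19 members were called higher in Vangl2 Lp/Lp (2.84% of all genes) and 28 in beta-catenin cKO (8.52%). The 3 comparisons share their wild-type libraries. Syt1, counted in all 3, was under 1 TPM in wild type and had enough signal to test only through mutant libraries. In whole tissue, more neurons and more RNA per neuron cannot be told apart.

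The summed TPM of the 33 tested members gives the size of the difference in single libraries. It was 648, 740 and 782 in wild type. It was 1241, 1240 and 1182 in beta-catenin cKO, and 1759, 1695 and 1641 in Emg1 cKO. Vangl2 Lp/Lp replicates 1, 2 and 3 had 1832, 1063 and 1073. Every mutant library lay above every wild-type library. The Emg1 cKO libraries lay above the beta-catenin cKO libraries, and Vangl2 Lp/Lp straddled both, with 1 library above all others and 2 below the beta-catenin cKO libraries. Tubb3, the neuron-specific beta-tubulin, made up 18.01% to 25.04% of the sum in a library.

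**Figure D1:**
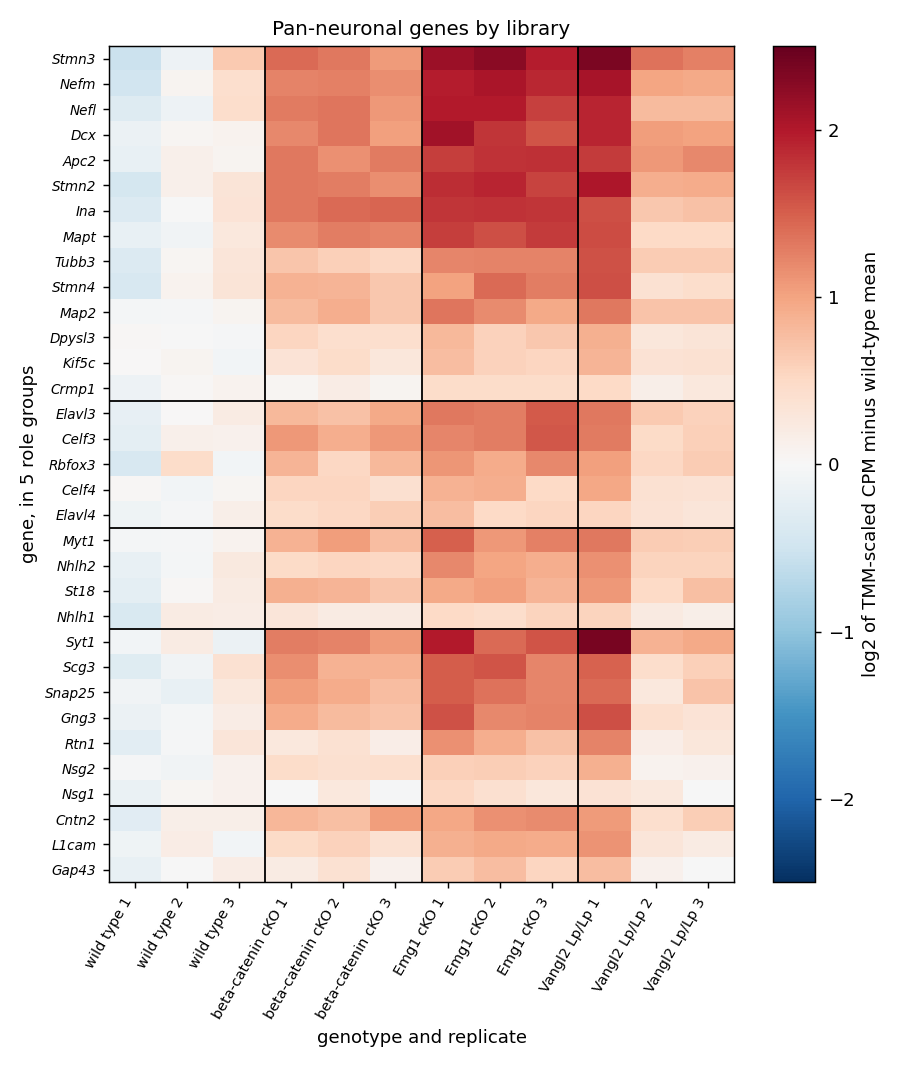
Heat map of each tested member (rows, grouped by role) in each of the 12 libraries (columns), as log2 of TMM-scaled counts relative to the wild-type mean of that gene. The wild-type columns lie around 0, the Emg1 cKO columns are the higher of the 2 conditional knockouts, and Vangl2 Lp/Lp replicate 1 differs from replicates 2 and 3.

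**Figure D2:**
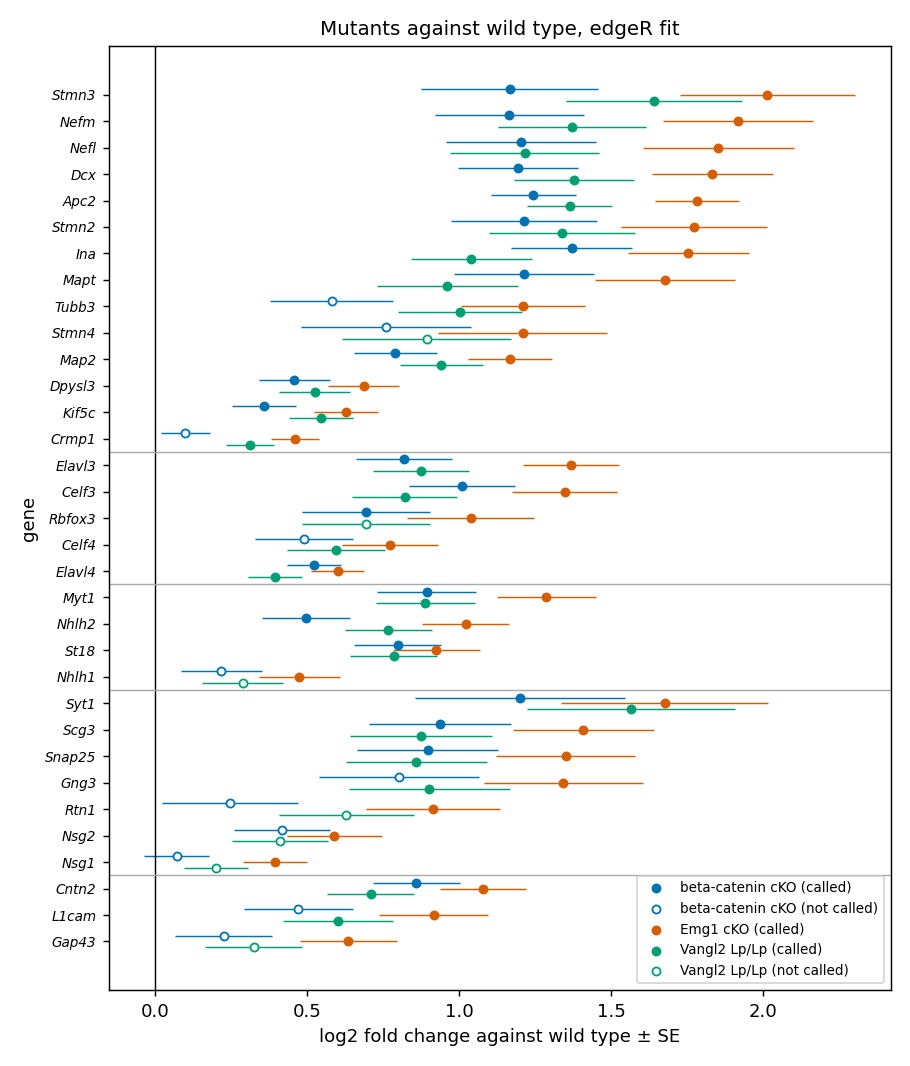
Log2 fold change against wild type of each tested member in the 3 mutants, with bars of 1 standard error; filled points passed the test and open points did not. All points lie above 0, and the called ones number 22 in beta-catenin cKO, 33 in Emg1 cKO and 26 in Vangl2 Lp/Lp.

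The cytoskeleton held the highest folds. Of its 14 members 14 rose in Emg1 cKO, 13 in Vangl2 Lp/Lp and 11 in beta-catenin cKO, with median log2 fold changes of 1.72, 1.02 and 1.17. Apc2 (ENSMUSG00000020135, mm10 chromosome 10, 80295977 to 80318263), a brain-enriched relative of the APC tumour suppressor that associates with microtubules, was at 3.47, 4.21 and 3.76 TPM in wild type. It was at 10.2, 9.0001 and 10.2 TPM in beta-catenin cKO, with 13.8, 14.4 and 14.8 for Emg1 cKO and 13.5, 8.45 and 9.40 for Vangl2 Lp/Lp. All 9 mutant libraries lay above all 3 wild-type libraries, and the Emg1 cKO libraries were the highest. The log2 fold changes were 1.24 ± 0.14 (SE; adjusted p = 5.2e-05), 1.78 ± 0.14 (adjusted p = 1.5e-06) and 1.36 ± 0.14 (adjusted p = 4.7e-05), each 3 libraries against 3.

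Dcx (ENSMUSG00000031285, chromosome X, 143855842 to 143933311) encodes doublecortin, a microtubule-associated protein of migrating and newly born neurons. It was at 8.84, 9.78 and 9.46 TPM in wild type, against 23.4, 25.3 and 20.9 for beta-catenin cKO. It was at 44.04, 34.7 and 30.3 TPM in Emg1 cKO, with 37.3, 20.2 and 19.99 for Vangl2 Lp/Lp. No mutant library overlapped wild type, and the spread was widest in Vangl2 Lp/Lp, where replicate 1 stood above the others. It rose by 1.19 ± 0.20, 1.83 ± 0.20 and 1.38 ± 0.20 on the log2 scale in beta-catenin cKO, in Emg1 cKO and in Vangl2 Lp/Lp (adjusted p = 0.0011, 2.8e-05 and 0.00082).

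The stathmins, which bind and destabilise microtubules, included the highest fold of all members, that of Stmn3 in Emg1 cKO (log2 fold change 2.01 ± 0.29). Its promoter window above holds 1 CAGATG. Stmn2 was at 10.4 ± 2.2 TPM in wild type (mean ± SD, n = 3 libraries in each group, as for the values that follow) and 38.9 ± 2.6 in Emg1 cKO. The neurofilament genes Nefl (35.6 ± 8.5 to 141 ± 15 TPM) and Nefm (22.7 ± 5.8 to 94.1 ± 4.9) and the related Ina (29.6 ± 5.7 to 110 ± 0.40) also rose in Emg1 cKO, and all 3 rose in both other mutants. Nefl and Nefm lie in overlapping spans on opposite strands, and the strand setting of the counting is not given. Tubb3 rose in Emg1 cKO (145 ± 26 to 366 ± 1.8 TPM) and in Vangl2 Lp/Lp, whose libraries ranged between 235 and 459 TPM, while its 236 ± 13 TPM in beta-catenin cKO did not pass (adjusted p = 0.069). Map2 and Mapt, microtubule-associated proteins of dendrites and axons, rose in all 3, Mapt in Vangl2 Lp/Lp not without wild-type replicate 1 or 2 (adjusted p up to 0.062). Crmp1 and Dpysl3, phosphoproteins of growth cone signalling, and Kif5c, a kinesin motor, had smaller folds, from 0.10 to 0.69 on the log2 scale. In beta-catenin cKO the call of Kif5c was lost without any 1 of the 6 libraries (adjusted p up to 0.12) and that of Dpysl3 without beta-catenin cKO replicate 1 or wild-type replicate 3 (up to 0.067). Crmp1 had the lowest folds of the cytoskeletal members. It was at 46.9, 50.8 and 49.4 TPM in wild type, against 54.98, 60.1 and 55.7 for beta-catenin cKO (adjusted p = 0.42). It was at 73.9, 72.4 and 73.8 TPM in Emg1 cKO, a called rise, and at 73.7, 57.5 and 62.8 in Vangl2 Lp/Lp, called unless Vangl2 Lp/Lp replicate 1 or wild-type replicate 1 or 2 was left out (adjusted p up to 0.12).

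Of the 5 RNA-binding members, which regulate the splicing and stability of neuronal transcripts, 5 rose in Emg1 cKO and 4 in each other mutant, with median log2 fold changes of 1.04, 0.69 in beta-catenin cKO and 0.70 in Vangl2 Lp/Lp. Elavl3 (HuC; ENSMUSG00000003410, chromosome 9, 22015005 to 22052023) was at 11.7, 13.2 and 14.1 TPM in wild type, against 24.6, 23.1 and 27.2 for beta-catenin cKO. It was at 35.6, 33.8 and 40.8 TPM in Emg1 cKO, with 34.3, 21.4 and 20.7 for Vangl2 Lp/Lp. The 3 conditions other than wild type were all clear of it, and the Emg1 cKO libraries were again clear of beta-catenin cKO. The log2 fold changes were 0.82 ± 0.16, 1.37 ± 0.16 and 0.88 ± 0.16 in beta-catenin cKO, in Emg1 cKO and in Vangl2 Lp/Lp (adjusted p = 0.0032, 4.3e-05 and 0.0036).

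Celf3 (ENSMUSG00000028137, chromosome 3, 94478295 to 94492198), of the CELF family of splicing factors, was at 8.95, 11.3 and 10.53 TPM in wild type, against 23.3, 20.6 and 23.6 for beta-catenin cKO. It was at 26.2, 26.8 and 32.6 TPM in Emg1 cKO, with 26.7, 14.9 and 16.5 for Vangl2 Lp/Lp. Wild type was the lowest group with no overlap, and Vangl2 Lp/Lp replicates 2 and 3 were below every beta-catenin cKO library. It rose by 1.01 ± 0.17, 1.35 ± 0.17 and 0.82 ± 0.17 on the log2 scale (adjusted p = 0.0014, 9.9e-05 and 0.0092). Elavl4 (HuD) rose in all 3 mutants, with log2 fold changes of 0.52, 0.60 and 0.39, the last not called without Vangl2 Lp/Lp replicate 1 (adjusted p = 0.065). Rbfox3, the NeuN antigen of mature neurons, was near 1.41 ± 0.44 TPM in wild type and passed in both conditional knockouts but not in Vangl2 Lp/Lp (adjusted p = 0.052). Celf4 passed in Emg1 cKO and Vangl2 Lp/Lp but not in beta-catenin cKO (adjusted p = 0.053), where it passed without Vangl2 Lp/Lp replicate 1. The call of Rbfox3 in beta-catenin cKO was lost without its replicate 1 or 3 or wild-type replicate 1 or 3 (adjusted p up to 0.12), and that of Celf4 in Vangl2 Lp/Lp without its replicate 1 or any 1 of the wild-type libraries (up to 0.15).

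Among the 5 transcription factors, Nhlh1 and Nhlh2 are basic helix-loop-helix factors expressed around cell cycle exit, and Myt1, Myt1l and St18 are zinc finger proteins of the MyT family. Of the 4 tested, 4 rose in Emg1 cKO and 3 in each other mutant, Nhlh1 being the exception in both. Myt1 (ENSMUSG00000010505, chromosome 2, 181763332 to 181827797) was at 6.46, 6.38 and 6.495 TPM in wild type, against 12.6, 14.3 and 11.98 for beta-catenin cKO. It was at 19.99, 14.6 and 16.8 TPM in Emg1 cKO, with 17.06, 10.54 and 10.5003 for Vangl2 Lp/Lp. The wild-type libraries were nearly equal and below all others. The log2 fold changes were 0.89 ± 0.16, 1.29 ± 0.16 and 0.89 ± 0.16 (adjusted p = 0.0022, 8.8e-05 and 0.0038).

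Nhlh2 (ENSMUSG00000048540, chromosome 3, 102010076 to 102015492), whose window carries both E-box forms, was at 15.04, 15.99 and 18.4 TPM in wild type, against 24.6, 25.6 and 25.8 for beta-catenin cKO. It was at 41.6, 34.8 and 33.4 TPM in Emg1 cKO, with 38.7, 25.3 and 25.8 for Vangl2 Lp/Lp. The beta-catenin cKO libraries and 2 of the Vangl2 Lp/Lp libraries lay close together between wild type and Emg1 cKO. It rose by 0.50 ± 0.14, 1.02 ± 0.14 and 0.77 ± 0.14 on the log2 scale (adjusted p = 0.031, 0.00019 and 0.0044), and the call in beta-catenin cKO was lost without any 1 of the 6 libraries other than wild-type replicate 3 (adjusted p up to 0.092). Nhlh1 had 24.6 ± 4.5 TPM in wild type and 37.4 ± 1.8 in Emg1 cKO, a rise not called without Emg1 cKO replicate 3 or wild-type replicate 1 (adjusted p up to 0.059). Myt1l, a factor of later neurons used to turn fibroblasts into neurons, was never above 1 TPM: it had 7.98 to 11.1 reads in a wild-type library, 27 in all, against 188, 220 and 188 over the 3 libraries of beta-catenin cKO, in Emg1 cKO and in Vangl2 Lp/Lp.

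**Figure D3:**
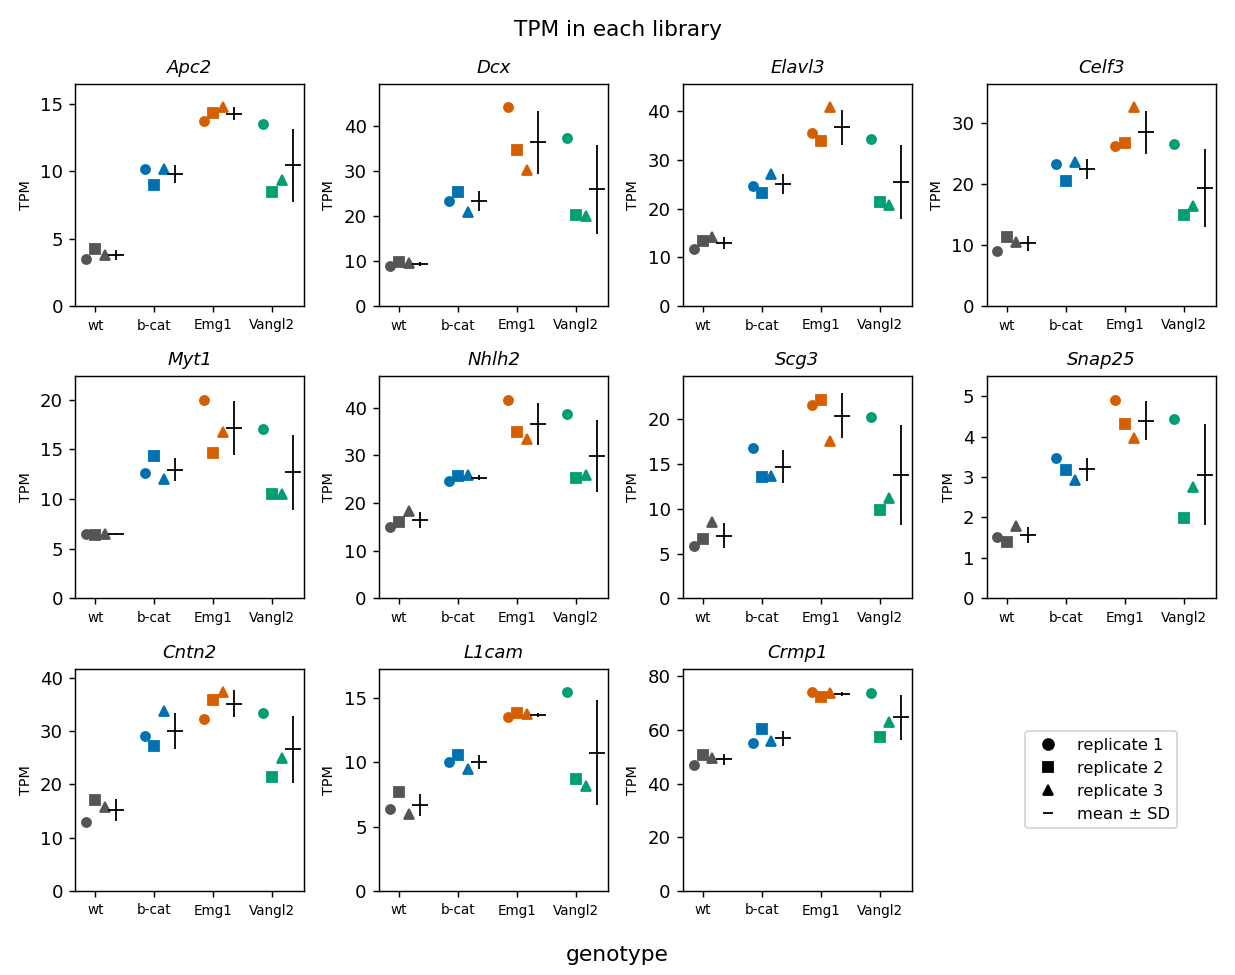
TPM of the 11 members described library by library, with 1 point for each of the 3 libraries of a genotype (wt, wild type; b-cat, beta-catenin cKO) and a bar at the mean; every axis starts at 0. Wild type is the lowest group in each panel, and Vangl2 Lp/Lp has 1 library above the other 2.

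All 7 synaptic and secretory members rose in Emg1 cKO, 4 in Vangl2 Lp/Lp and 3 in beta-catenin cKO, with median log2 fold changes of 1.34, 0.86 and 0.80. Scg3 (ENSMUSG00000032181, chromosome 9, 75643189 to 75684056), a granin of dense-core granules, was at 5.82, 6.59 and 8.53 TPM in wild type, against 16.8, 13.6 and 13.7 for beta-catenin cKO. It was at 21.5, 22.1 and 17.5 TPM in Emg1 cKO, with 20.2, 9.86 and 11.2 for Vangl2 Lp/Lp. No mutant library overlapped wild type, although 1 Vangl2 Lp/Lp library came close. It rose by 0.94 ± 0.23, 1.41 ± 0.23 and 0.87 ± 0.23 on the log2 scale (adjusted p = 0.015, 0.00062 and 0.030).

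Snap25 (ENSMUSG00000027273, chromosome 2, 136713453 to 136782428), a SNARE protein of vesicle fusion, was at 1.52, 1.39 and 1.79 TPM in wild type, against 3.47, 3.17 and 2.92 for beta-catenin cKO. It was at 4.90, 4.30 and 3.96 TPM in Emg1 cKO, with 4.43, 1.99 and 2.74 for Vangl2 Lp/Lp. Its levels were low throughout, with 106 to 374 reads in a library, and the groups did not overlap wild type. The log2 fold changes were 0.90 ± 0.23, 1.35 ± 0.23 and 0.86 ± 0.23 (adjusted p = 0.018, 0.00077 and 0.031). For Scg3 and Snap25 the calls were lost without Vangl2 Lp/Lp replicate 1 (adjusted p = 0.15 and 0.16), without wild-type replicate 1 or 2 in Vangl2 Lp/Lp, and without beta-catenin cKO replicate 1 or wild-type replicate 2 in beta-catenin cKO. Syt1, the calcium sensor of synaptic vesicles, was the scarcest tested member, at 0.451 ± 0.072 TPM in wild type and 1.56 ± 0.34 in Emg1 cKO. It lay under 1 TPM in every wild-type library, so it had enough signal to test only through mutant libraries. It rose in all 3 mutants, though in beta-catenin cKO the call was lost without any 1 of the 6 libraries (adjusted p up to 0.10). Gng3, a G protein gamma subunit, passed in Emg1 cKO and, unless replicate 1 or any 1 of the wild-type libraries was left out, in Vangl2 Lp/Lp (adjusted p up to 0.22). In the fit of 12 libraries the endosomal proteins Nsg1 and Nsg2 and the reticulon Rtn1 passed the test in Emg1 cKO alone of the 3. Nsg1 had the lowest fold in Emg1 cKO (log2 fold change 0.39 ± 0.11). The call of Nsg1 was lost without Emg1 cKO replicate 1 or wild-type replicate 1 and that of Nsg2 without wild-type replicate 2 (adjusted p up to 0.059).

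The 3 adhesion and growth cone members rose in Emg1 cKO, with a median log2 fold change of 0.92. Cntn2 (ENSMUSG00000053024, chromosome 1, 132509427 to 132543256), the TAG-1 adhesion protein of early commissural and motor axons, was at 12.9, 16.99 and 15.8 TPM in wild type, against 28.98, 27.3 and 33.8 for beta-catenin cKO. It was at 32.3, 35.7 and 37.3 TPM in Emg1 cKO, with 33.4, 21.3 and 24.9 for Vangl2 Lp/Lp. Beta-catenin cKO and Emg1 cKO overlapped, unlike in most members. It rose by 0.86 ± 0.14, 1.08 ± 0.14 and 0.71 ± 0.14 on the log2 scale (adjusted p = 0.0011, 0.00012 and 0.0066).

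L1cam (ENSMUSG00000031391, chromosome X, 73853778 to 73896105), an axonal adhesion protein, was at 6.38, 7.68 and 6.01 TPM in wild type, against 10.03, 10.6 and 9.44 for beta-catenin cKO. It was at 13.5, 13.8 and 13.8 TPM in Emg1 cKO, with 15.4, 8.69 and 8.15 for Vangl2 Lp/Lp. The beta-catenin cKO libraries lay above wild type in TPM, yet the difference was not called (log2 fold change 0.47 ± 0.18, adjusted p = 0.092). It rose in Emg1 cKO (0.92 ± 0.18, adjusted p = 0.0021) and passed narrowly in Vangl2 Lp/Lp (0.60 ± 0.18, adjusted p = 0.049), a call lost without replicate 1 or without any 1 of the wild-type libraries (adjusted p up to 0.19). In the fit of 12 libraries Gap43, a growth cone protein, passed in Emg1 cKO alone of the 3 tests, at 116 ± 8.5 against 68.2 ± 5.4 TPM.

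Without Vangl2 Lp/Lp replicate 1, 19 of 33 members were called higher in Vangl2 Lp/Lp, against 2.84% of all genes, with a median log2 fold change of 0.51. Those that no longer passed were Celf4, Crmp1, Elavl4, Gng3, L1cam, Scg3 and Snap25. Apc2 (log2 fold change 1.13), Dcx (1.01) and Stmn3 (1.20) were still called. Without that Vangl2 Lp/Lp library 28 of 33 members were called in beta-catenin cKO, against 8.52% of all genes. By that count beta-catenin cKO lay above Vangl2 Lp/Lp, the reverse of the 12-library fit (22 and 26). The calls by role were 13 cytoskeletal, 5 RNA-binding, 3 transcription factor, 5 synaptic and secretory and 2 adhesion members. Some members described above as not called in beta-catenin cKO therefore passed there. Beta-catenin cKO gave 14 calls without its replicate 1, the fewest of its fits with 1 library left out. Over those fits the calls higher among all genes moved too, from 810 to 1520, against 1335 with 12 libraries. The share of all genes in the fit without beta-catenin cKO replicate 1 is not given. Members whose libraries all lay above all wild-type libraries numbered 33 in Emg1 cKO on TMM-scaled counts, against 17.7% of all genes tested. They numbered 29 in beta-catenin cKO (17.5%) and 28 in Vangl2 Lp/Lp (14.3%). On TPM, which is not rescaled between libraries, the counts were 33, 33 and 32, with no share of all genes given on that scale. TPM lay higher in the mutants over all genes too. With limma on log2(TPM + 1), 82.0%, 82.5% and 85.1% of all genes called were higher in Emg1 cKO, beta-catenin cKO and Vangl2 Lp/Lp.

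The mutants were also compared with each other, since a test passed in 1 and missed in another does not show a difference. Between beta-catenin cKO and Emg1 cKO all 33 log2 fold changes were below 0, with a median of -0.44 against 0.00 for all genes. Only Apc2 and Crmp1 were called lower in beta-catenin cKO, against 1.89% of all genes. At an unadjusted p under 0.05 18 members were lower, but no share of all genes is given at that threshold. Apc2 had a log2 fold change of -0.54 ± 0.13 (adjusted p = 0.038) and Crmp1 of -0.36 ± 0.08 (adjusted p = 0.021). The call of Apc2 was lost without any 1 of the 6 libraries (adjusted p up to 0.15) and that of Crmp1 without beta-catenin cKO replicate 1 or 3 or Emg1 cKO replicate 1 or 2 (up to 0.11). In 29 of 33 members the 3 beta-catenin cKO libraries lay below the 3 Emg1 cKO libraries, against 12.2% of all genes. Celf4, Cntn2, Elavl4 and St18 overlapped.

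The number called in that comparison was not the same in other fits. It was 18 in a fit of the 2 genotypes alone. In that fit 481 of all genes were called lower and 321 higher, against 338 and 244 in the fit of 12 libraries. The fit without Vangl2 Lp/Lp replicate 1 gave 19, where 2.90% of all genes were called lower and 1.66% higher. The median log2 fold change there was -0.44, as in the fit of 12 libraries. The 19 included Dcx (-0.64), Tubb3 (-0.63), Elavl3 (-0.55), Nhlh2 (-0.52), Nefm (-0.75), Rtn1 (-0.67) and L1cam (-0.44).

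Emg1 cKO and Vangl2 Lp/Lp differed in 0 members by edgeR, where 1.32% of all genes were called higher and 1.51% lower in Emg1 cKO. At an unadjusted p under 0.05 13 members were higher, again with no share of all genes given, and DESeq2 called 1 and limma 0. All 33 log2 fold changes were above 0, with a median of 0.32. Without Vangl2 Lp/Lp replicate 1 the median was 0.67 and 23 members were called higher in Emg1 cKO, against 2.10% of all genes. Between beta-catenin cKO and Vangl2 Lp/Lp 0 members were called (1.62% of all genes higher and 2.25% lower), 1 was lower at an unadjusted p under 0.05, and DESeq2 and limma called 0. The median log2 fold change was -0.10. Without Vangl2 Lp/Lp replicate 1 it was 0.20, the other sign, and Celf3, Ina, Mapt and Nsg2 were called higher in beta-catenin cKO, against 1.33% of all genes, and none lower, against 1.90%.

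**Figure D4:**
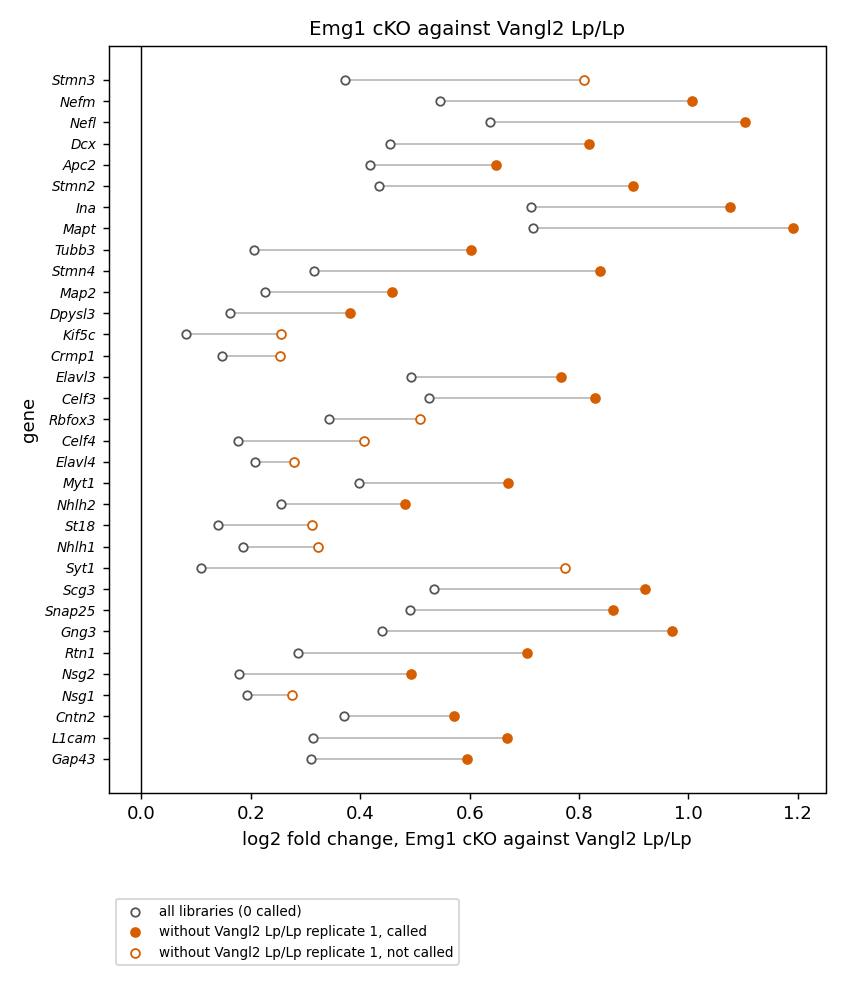
Log2 fold change of each tested member in Emg1 cKO against Vangl2 Lp/Lp, with all 12 libraries in the fit and without Vangl2 Lp/Lp replicate 1; filled points passed the test. With all libraries 0 members passed and the median was 0.32; without that library 23 passed and the median was 0.67.

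Other neuronal genes, outside the 34, were read from a second list of 34 symbols, of which 31 were tested. It too was chosen with earlier results of these data known. In Emg1 cKO 29 rose and in Vangl2 Lp/Lp and beta-catenin cKO 22 and 21, with median log2 fold changes of 0.79, 0.57 and 0.48. By edgeR 0 were called lower, also at an unadjusted p under 0.05 and by DESeq2 and limma. Without Vangl2 Lp/Lp replicate 1 the count in Vangl2 Lp/Lp was 15. Nova2, a neuronal splicing regulator, rose in all 3, from 8.89 ± 0.78 TPM in wild type to 14.8 ± 1.8 in beta-catenin cKO, 19.2 ± 1.8 in Emg1 cKO and 14.8 ± 1.6 in Vangl2 Lp/Lp. Of 9 genes of neuronal gene repression, edgeR called 0 in beta-catenin cKO and in Vangl2 Lp/Lp (2 in each at an unadjusted p under 0.05, and 0 by DESeq2 or limma), and Ptbp1, a splicing repressor of neuronal exons, was called lower in Emg1 cKO with a log2 fold change of -0.15, a call lost without any 1 of the 6 libraries other than wild-type replicate 3 (adjusted p up to 0.14). Rest itself was not called in any, at 42.8 ± 6.1 TPM in wild type and between 48.0 ± 3.1 and 50.1 ± 3.5 in the mutants.

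Of 15 neural progenitor genes tested, 4, 7 and 9 rose in beta-catenin cKO, in Emg1 cKO and in Vangl2 Lp/Lp, with median log2 fold changes of 0.23, 0.28 and 0.39; 0 were called lower by edgeR, DESeq2 or limma (1 in Vangl2 Lp/Lp at an unadjusted p under 0.05). In Vangl2 Lp/Lp 8 rose without replicate 1. The highest folds of the list were those of Ncan, a chondroitin sulphate proteoglycan of the nervous system, at 1.37, 1.68 and 1.79 on the log2 scale. The value in Vangl2 Lp/Lp was 1.39 without replicate 1, which had 12.7 TPM against 6.66 and 6.38 in the others. Nes, the intermediate filament of neural progenitors, was at 151 ± 7.5 TPM in wild type and 207 ± 12, 230 ± 8.4 and 211 ± 17 in the same order. The summed members divided by the summed progenitor genes gave 0.558 to 0.673 in wild type, 0.790 to 0.897 in beta-catenin cKO and 1.08 to 1.18 in Emg1 cKO. Vangl2 Lp/Lp had 1.15 in replicate 1 and 0.731 and 0.730 in the others. This ratio was higher in each of the 9 mutant libraries than in any wild-type library. Of 15 proneural and cell cycle exit genes 2, 8 and 8 rose, and in Vangl2 Lp/Lp 1 of 15 did so without replicate 1. In beta-catenin cKO 1 fell, Atoh1, a proneural factor of the most dorsal spinal progenitors, from 3.55 ± 0.21 to 1.13 ± 0.35 TPM (log2 fold change -1.76 ± 0.30, adjusted p = 0.0012). Neurod4, a proneural factor of late progenitors, rose in all 3, from 23.2 ± 3.1 TPM to 37.2 ± 2.9, 34.3 ± 2.7 and 30.6 ± 0.84. Its call in Vangl2 Lp/Lp was lost without any 1 of the 6 libraries other than wild-type replicate 2 (adjusted p up to 0.11).

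Subtype factors did not move as a block. Of 20 tested genes of spinal neuron subtypes, 11 rose and 2 fell in beta-catenin cKO, and 13 rose and 2 fell in Emg1 cKO. In Vangl2 Lp/Lp 5 rose, and 4 did so without replicate 1. Of 6 sensory neuron genes 1, 4 and 3 rose in beta-catenin cKO, in Emg1 cKO and in Vangl2 Lp/Lp (2 in Vangl2 Lp/Lp without replicate 1). Pou4f1, a factor of sensory neurons and of some dorsal spinal neurons, was at 5.76 ± 0.67 TPM in wild type, fell to 2.60 ± 0.52 in beta-catenin cKO, and rose to 9.64 ± 1.4 in Emg1 cKO and 9.14 ± 1.2 in Vangl2 Lp/Lp. The rise in Emg1 cKO was not called without its replicate 3 (adjusted p = 0.065), nor that in Vangl2 Lp/Lp without its replicate 1 or wild-type replicate 1 or 2 (adjusted p up to 0.15). Sox10, of neural crest and its glia, fell from 22.9 ± 2.5 to 6.83 ± 1.8 TPM in beta-catenin cKO alone of the 3 tests. It is 1 of 7 neural crest genes, of which 5 fell in beta-catenin cKO, 1 rose and 2 fell in Emg1 cKO, and 1 rose in Vangl2 Lp/Lp.

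Markers of other tissues moved too, and their part in the neuronal values was not tested. The summed TPM of 9 tail bud genes ranged from 128 to 151 in wild type, 100.6 to 109 in beta-catenin cKO, 87.6 to 128 in Emg1 cKO and 135 to 221 in Vangl2 Lp/Lp, with 4 and 5 of 9 called lower in the conditional knockouts. In Vangl2 Lp/Lp edgeR called 0, DESeq2 and an unadjusted p under 0.05 each gave 1 higher, and limma called 0, while without replicate 1 edgeR called 2 higher. Of 10 surface ectoderm genes 6, 9 and 4 fell (1 in Vangl2 Lp/Lp without replicate 1), their summed TPM being 391 to 474 in wild type, 344 to 367, 241 to 324 and 285 to 364. The tenth in Emg1 cKO, Krt14, a keratin of basal epidermis, rose there (log2 fold change 0.89 ± 0.31, adjusted p = 0.049), a call lost without any 1 of the 6 libraries other than wild-type replicate 3 (up to 0.19). Of 9 endothelial and blood genes 5, 7 and 3 fell (2 in Vangl2 Lp/Lp without replicate 1), with sums of 27452 to 32758 in wild type, 19709 to 20694, 15608 to 21013 and 18717 to 29140. Of 9 somite and muscle genes 3, 4 and 2 rose, and 1 fell in Vangl2 Lp/Lp (0 without replicate 1). Of 9 trunk Hox genes edgeR called 0 in any mutant (1, 2 and 2 at an unadjusted p under 0.05; DESeq2 called 0, 1 and 1, and limma 1, 0 and 1; without Vangl2 Lp/Lp replicate 1 edgeR called 1 and 2 lower and 1 higher). The axial level, as read from 12 Hox10 to Hox13 genes, gave sums of 682 to 695 in wild type, 588 to 658 in beta-catenin cKO, with 2 genes called lower, and 761 to 815 in Emg1 cKO. In Emg1 cKO edgeR called 0 of the 12; at an unadjusted p under 0.05 2 were higher and 0 lower, DESeq2 called 1 higher and limma 2. In Vangl2 Lp/Lp edgeR also called 0; at an unadjusted p under 0.05 3 were higher and 1 lower, DESeq2 called 1 higher and limma 0. Without Vangl2 Lp/Lp replicate 1 edgeR called 6 lower in beta-catenin cKO, 4 higher in Emg1 cKO and 2 higher in Vangl2 Lp/Lp.

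**Figure D5:**
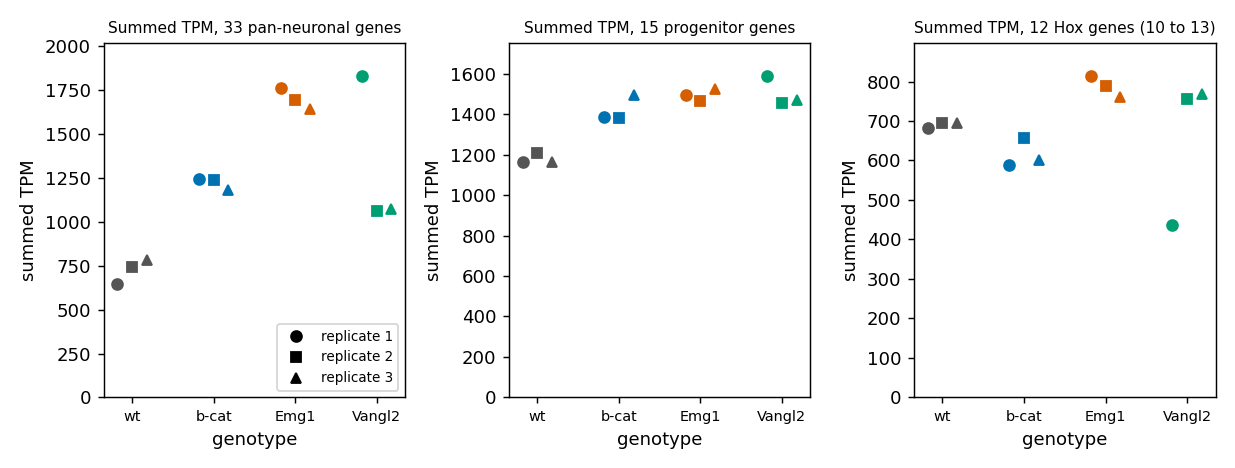
Summed TPM in each library of the 33 tested members, of 15 neural progenitor genes and of 12 Hox10 to Hox13 genes; points are libraries and axes start at 0. The members range from 648 to 782 in wild type and from 1063 to 1832 in the mutants, and Vangl2 Lp/Lp replicate 1 is the highest for members and the lowest for Hox genes.

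Gene spans limit some values, since the strand setting of the counting is not given. In 11 of the 34 members the span overlapped that of another counted gene. Those on the opposite strand included Gng3 with Bscl2, Ina with Nt5c2 and Crmp1 with Evc. Tubb3 shares its strand with the gene model Gm20388, and L1cam with Arhgap4, so reads could be split between them.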

How the data were processed

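RNA was sequenced from the caudal region of mouse embryos in 12 libraries, 3 for each of 4 genotypes, from a stranded mRNA kit per the labels' protocols. The submitters' processing notes name Trimmomatic 0.39, STAR 2.7.10b and the build mm10. The counter, its strand option and the annotation release were not given in the sources used here. By the file headers, the table the authors deposited holds, for each library, the log2 of TPM and expected counts of reads per gene, which the authors did not normalise. TPM of 1 or less are listed at 0, and were rebuilt from the counts (deviation at most 1.2e-06 on the log2 scale), except for Myt1l, which has no value above 1 TPM. All 24 value columns were matched to libraries.

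After rounding, the expected counts of 17848 genes entered 1 fit of all 12 libraries in edgeR 4.0.16 (R 4.3.3) with TMM scaling and the two-sided quasi-likelihood test (35494 left out), with Benjamini-Hochberg adjustment within each of 6 comparisons. Standard errors are the log2 fold change over the root of F. Alternatives used DESeq2 1.42.0 and limma 3.58.1. In data simulated on 17848 genes, with 100 changed 1.5-fold and 100 changed 2-fold, the test found 68, 74 and 81 at 1.5-fold and 94, 94 and 93 at 2-fold for beta-catenin cKO, for Emg1 cKO and for Vangl2 Lp/Lp, with 13, 8 and 10 false calls. Far more genes were called in the real comparisons with wild type than were changed in the simulation. The recovery may therefore differ from that of the tests reported.

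The members and the other lists were chosen with earlier results of these data known. Values in every library are given for the 2 members of each role with the smallest adjusted p against wild type and for members called between mutants. Other genes were named as examples after their values were seen. The p-values measure spread between pools, which may be technical in part. Promoter windows are from RefSeq, with 27025 windows searched, the first listed window being used for each gene. Figures were drawn with matplotlib 3.10.9 in Python 3.11.15.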

Additional observations from a re-analysis of the deposited data

Results flagged for a closer look

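The effects against wild type of a few genes differed between mutants by the test of the difference itself, edgeR's quasi-likelihood test between the mutants. Among the members, Crmp1 had a log2 difference of -0.36 (adjusted p = 0.021) and Apc2 of -0.54 (adjusted p = 0.038) in beta-catenin cKO against Emg1 cKO, each lower in all 3 beta-catenin cKO libraries than in all 3 Emg1 cKO libraries. Of the other neuronal genes, Chl1, an adhesion protein related to L1cam, had -0.92 (adjusted p = 0.0038) in the same comparison, at 3.68 ± 0.39 against 7.01 ± 1.5 TPM (mean ± SD, n = 3).

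Pou4f1 had log2 differences of -1.88 (adjusted p = 3.9e-05) in beta-catenin cKO against Emg1 cKO and -1.84 (adjusted p = 1.9e-05) against Vangl2 Lp/Lp. Sox10 had -1.68 (adjusted p = 3.9e-05) and -2.07 (adjusted p = 2.2e-06). Atoh1 had -1.86 (adjusted p = 0.0024) and -2.70 (adjusted p = 8.4e-05), and against wild type it was called lower in beta-catenin cKO and higher in Vangl2 Lp/Lp, the latter call being lost without any 1 of the 6 libraries other than Vangl2 Lp/Lp replicate 3 (adjusted p up to 0.12). Krt14 had -2.14 (adjusted p = 0.0023) and -1.89 (adjusted p = 0.0046). Both comparisons share the beta-catenin cKO libraries.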

How the results depend on the processing

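No member changed direction against its main value where it was called: of 2673 values of single members under other settings 2433 kept their side of the threshold, 89 lost it, 151 gained it and 0 reversed. The median over members in beta-catenin cKO against Vangl2 Lp/Lp, where 0 were called, reversed to 0.201 without Vangl2 Lp/Lp replicate 1. Members called lower in beta-catenin cKO against Emg1 cKO numbered 1 with limma on log2(TPM + 1), 24 with no filter on low values, 18 with only the 2 genotypes compared and 1 with the replicate block. Among all genes 256 were called lower in that comparison with limma and 298 with the replicate block. Members higher in Emg1 cKO against Vangl2 Lp/Lp were 1 with DESeq2 and 17 with no filter. Beta-catenin cKO against Vangl2 Lp/Lp gave 1 higher and 5 lower with no filter. Vangl2 Lp/Lp against wild type gave 17 with only the 2 genotypes compared. The cause was not tested.

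Leaving out 1 library at a time gave 31 to 33 members higher in Emg1 cKO, 14 to 28 in beta-catenin cKO and 19 to 30 in Vangl2 Lp/Lp. Between mutants it gave 0 to 19 members lower in beta-catenin cKO against Emg1 cKO, 0 to 4 higher in beta-catenin cKO against Vangl2 Lp/Lp (median -0.207 to 0.201) and 0 to 23 higher in Emg1 cKO against Vangl2 Lp/Lp. Fits without Vangl2 Lp/Lp replicate 1 in comparisons of other genotypes were added after seeing the data. Over all genes, the higher and lower counts ranged over 810 to 1520 and 626 to 1381 in beta-catenin cKO, 1425 to 2146 and 1185 to 1946 in Emg1 cKO, and 506 to 930 and 213 to 637 in Vangl2 Lp/Lp. Between mutants they ranged over 92 to 296 and 139 to 517 (beta-catenin cKO against Emg1 cKO), 154 to 237 and 217 to 339 (against Vangl2 Lp/Lp), and 83 to 375 and 103 to 291 (Emg1 cKO against Vangl2 Lp/Lp).

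Counts over all genes moved by more than 1.5 times, or the share higher by over 10 percentage points, as follows, higher and then lower. DESeq2 gave 424 and 566 in beta-catenin cKO against Emg1 cKO, 435 higher in beta-catenin cKO against Vangl2 Lp/Lp, and 461 and 479 in Emg1 cKO against Vangl2 Lp/Lp. With no filter these comparisons gave 553 and 755, 566 and 773, and 616 and 628, and Vangl2 Lp/Lp against wild type 1596 and 1028. With only the 2 genotypes compared, Emg1 cKO against Vangl2 Lp/Lp gave 138 and 156, Vangl2 Lp/Lp against wild type 507 and 230, and Emg1 cKO against wild type 1189 lower. The 12-library fit against wild type had, for beta-catenin cKO, for Emg1 cKO and for Vangl2 Lp/Lp, 1335 and 1247, 2021 and 1859, and 973 and 597. These became 1762 and 799, 2636 and 1224, and 1230 and 379 with library totals alone, and 1981 and 421, 3035 and 667, and 1019 and 179 with limma. Upper-quartile scaling gave 1530 and 943 in beta-catenin cKO, 61.9% higher against 51.7%. Emg1 cKO against Vangl2 Lp/Lp had 235 and 270, and 212 and 139 with limma. With limma the median of all genes lay at 0.103, 0.110 and 0.077 in the 3 mutants against wild type, well under the members' medians.

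Libraries with the same replicate number correlated at -0.132 to 0.075, so the numbers do not pair them. With the replicate block 23, 33 and 25 members were higher in beta-catenin cKO, in Emg1 cKO and in Vangl2 Lp/Lp. Of all 17848 genes 1272, 1900 and 878 were called higher there. Depth limits Myt1l, Syt1 and Rbfox3 most.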
